A study of Mus musculus with 12 samples.

Results

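Endothelial cells line blood and lymph vessels, and the genes that mark them encode junction proteins, receptors for growth factors, transcription factors and adhesion molecules for leukocytes. Here 42 such endothelial and angiogenesis genes were followed across 12 mouse uteri, as 33 blood vessel genes, 4 lymphatic genes and 5 genes of secreted growth factors. All 42 had a probe on the Illumina bead arrays. Of these, 37 were detected on at least 3 arrays and were tested, among 12194 genes in all. The 37 comprised 29 blood vessel, 4 lymphatic and 4 growth factor genes.

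Each genotype had 3 uteri, all from C57BL/6 females aged 2 months. The tested genotypes, in the words of the labels, were Cdh1-, P53- (titled Cdh1_P53_cKO, here double cKO), Cdh1-, P53+ (titled Cdh1_cKO) and Cdh1+, P53- (titled P53_cKO), and the control was wild type, Cdh1+, P53+ (titled CO). Cdh1 encodes the epithelial adhesion protein E-cadherin, and P53 the tumour suppressor p53. Which promoter drove the deletion, which exons were removed, the cycle stage and whether uteri came from littermates are not stated in the sources used, so a p-value reflects only the variation among these uteri.

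Endothelium forms the inner surface of vessels, and its identity is set largely by ETS family transcription factors. Vascular endothelial growth factors act through the receptors Flt1, Kdr and Flt4, and angiopoietins through Tek. The uterine endometrium rebuilds its vessels with each reproductive cycle, and inflamed endothelium carries more adhesion molecules, on which leukocytes roll and attach.

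Values are log2 signals after background correction and quantile normalisation, and a difference of 1 is a doubling. Per array, 44.3% to 47.9% of 45281 probes were detected, and a median of 41 to 43 beads lay behind each probe. The Cdh1 probe averaged 8.41 ± 1.17 in double cKO, 9.77 ± 0.20 in the uteri labelled Cdh1 cKO, 9.14 ± 0.11 in P53 cKO and 9.73 ± 0.34 in control (SD, n = 3 each). It was therefore not lower in the uteri labelled Cdh1 cKO, and directions drawn from that group rest on its label. In double cKO it had 9.67, 8.18 and 7.36, against 9.26, 9.13 and 9.04 in P53 cKO and 9.71, 9.41 and 10.08 in control. The signal of double cKO replicate 1 thus lay within the control values and above every P53 cKO value, against its label, and double cKO here means the uteri labelled so. The Cdh1 difference of double cKO was -1.33 from control and -0.74 from P53 cKO (limma adjusted p = 0.154 and 0.530). P53 itself was not analysed here. Double cKO replicate 1 also stood apart in other genes, with the median of 6 oviduct genes 1.14 above their mean over the arrays, where the other 11 arrays lay between -0.32 and 0.28. Its proliferation genes had a median of -1.55, where the other double cKO uteri had 0.78 and 0.35, and control replicate 3 had 0.71 where the other control uteri had -0.41 and -0.40. Counts without double cKO replicate 1 and without control replicate 3 are given with the results. In whole uterus, fewer endothelial cells and less RNA per endothelial cell cannot be told apart.

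Promoter windows were read from the RefSeq table of build GRCm38.p6, which covered 23 of the 42 genes. Shown are those of Cd34, Tie1, Icam1 and Emcn, the genes with a window among the 6 with the smallest adjusted p in double cKO against control. Each window runs from 250 bases before the transcription start to 50 after it, on the strand of the gene. They lie at chr1:194938571-194938870 (plus strand), chr4:118489800-118490099 (minus strand), chr9:21015690-21015989 (plus strand) and chr3:137340828-137341127 (plus strand). Capitals mark AGGAAG, the letters searched for as the ETS core, or their reverse complement in Cd34, Tie1 and Emcn. In Icam1, capitals mark TATAAA, the letters searched for as the TATA box. Variants of AGGAAG were not searched, so unmarked letters in these windows, Icam1 included, may still hold an ETS site.
Cd34: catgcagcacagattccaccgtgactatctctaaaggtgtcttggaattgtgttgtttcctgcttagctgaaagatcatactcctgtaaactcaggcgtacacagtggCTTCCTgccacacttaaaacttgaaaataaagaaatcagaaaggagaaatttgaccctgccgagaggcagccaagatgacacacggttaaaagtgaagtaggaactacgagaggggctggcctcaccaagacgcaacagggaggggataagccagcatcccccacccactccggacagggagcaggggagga
Tie1: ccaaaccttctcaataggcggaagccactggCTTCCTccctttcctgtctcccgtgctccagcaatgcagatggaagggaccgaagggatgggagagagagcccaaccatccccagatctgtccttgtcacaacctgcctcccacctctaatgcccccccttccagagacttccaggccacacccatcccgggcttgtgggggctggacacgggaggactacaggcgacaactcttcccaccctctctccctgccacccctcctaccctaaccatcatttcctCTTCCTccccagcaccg
Icam1: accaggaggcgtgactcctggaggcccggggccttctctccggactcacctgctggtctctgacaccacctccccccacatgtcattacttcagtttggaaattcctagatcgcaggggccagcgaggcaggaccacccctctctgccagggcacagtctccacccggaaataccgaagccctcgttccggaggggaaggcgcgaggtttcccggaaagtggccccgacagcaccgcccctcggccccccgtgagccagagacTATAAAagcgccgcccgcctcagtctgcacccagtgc
Emcn: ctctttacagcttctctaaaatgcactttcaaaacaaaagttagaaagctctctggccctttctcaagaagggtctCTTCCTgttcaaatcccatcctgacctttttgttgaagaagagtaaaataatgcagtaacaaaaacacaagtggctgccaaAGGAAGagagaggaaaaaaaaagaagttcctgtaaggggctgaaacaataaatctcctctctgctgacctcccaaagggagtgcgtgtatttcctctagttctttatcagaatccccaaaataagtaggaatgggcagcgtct

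The Cd34 match begins at position -142 from the start, those in Tie1 at -219 and 34, and those in Emcn at -174 and -93. The TATAAA match of Icam1 begins at 14, after the transcription start used for this window, so it is given as letters only. On either strand, AGGAAG occurred in 13 of 29 member windows (44.8%), against 35.4% of all 32851 windows, and TATAAA in 5 of 29 (17.2%), against 13.6%. The NF-kB consensus, a pattern of 10 letters that begins with GGG and ends with CC, occurred in 5 of 29 member windows, against 8.46% of all windows. These were the windows of Dll4, Flt1, Kdr, Notch4 and Vegfa. Variants of the pattern were not searched, so a window without a match, such as that of Icam1, may still hold an NF-kB site. Motifs were counted separately even where matches could overlap, and a match is a description of these letters.

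Double cKO against control addresses the combined loss of the 2 proteins. Most blood vessel genes lay lower in double cKO, while the adhesion genes Icam1, Vcam1 and Selp and the clotting factor gene Vwf lay higher. In limma's model over all 12 arrays, 1 of 37 members rose, Vcam1, and 1 fell, Cd34, where 1.91% of all genes rose and 0.82% fell (2.73% in either direction). Of the 37, 28 had a difference below 0, with a median of -0.51, against 55.4% of all genes and a median of -0.04. Double cKO and control values were fully separate for 6 members that were higher and 13 that were lower, where 11.5% and 14.2% of all genes did not overlap in those directions. At an unadjusted p below 0.05 there were 5 higher and 13 lower members, beside 8.51% and 8.56% of all genes.

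**Figure D1:**
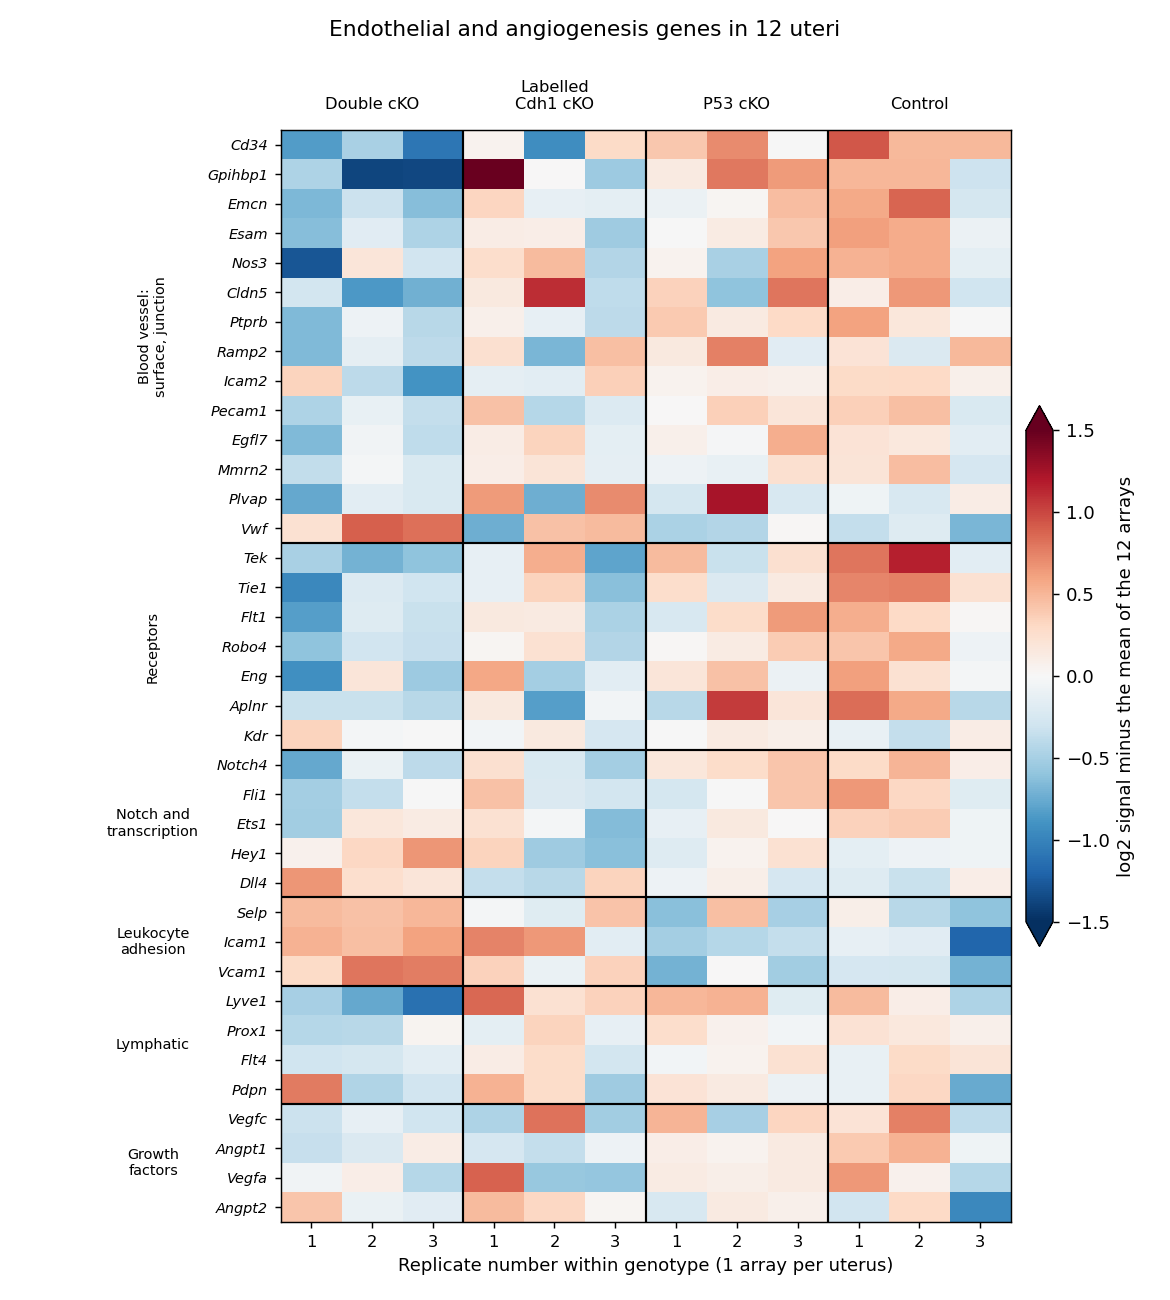
Log2 signal of the 37 tested genes on 12 arrays as the deviation of each gene from its own mean over the arrays, in columns by genotype (double cKO, uteri labelled Cdh1 cKO, P53 cKO, control) and in rows by role; the colour scale ends at 1.5 on each side. Most surface and receptor rows are blue in double cKO and red in control replicates 1 and 2, and the adhesion rows and Vwf run the other way.

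The surface and junction genes make up the largest role among the vessel genes, and 13 of 14 lay below 0 (median -0.60). Despite its name, this role also holds genes of secreted, matrix and enzyme proteins, such as Vwf, Egfl7, Mmrn2 and Nos3. Cd34, which encodes a sialomucin of small vessel endothelium that stromal and blood progenitor cells also carry, had 7.74, 8.09 and 7.49 in double cKO, 8.64, 7.65 and 8.86 in the uteri labelled Cdh1 cKO, 8.98, 9.29 and 8.58 in P53 cKO, and 9.52, 9.06 and 9.07 in control. All 3 double cKO values lay under all 6 values of P53 cKO and control. It fell by 1.44 ± 0.32 (SE) on the log2 scale in double cKO against control (limma adjusted p = 0.0390). The call was lost without any 1 double cKO uterus, without control replicate 1 or 2, and without P53 cKO replicate 1 (adjusted p up to 0.157), and the difference then stayed between -1.60 and -1.29. It was also lost with no detection filter and with the replicate number as a block (adjusted p up to 0.0795).

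Emcn, which encodes the venous and capillary sialomucin endomucin, had 9.86, 10.20 and 9.88 in double cKO, against 11.10, 11.40 and 10.26 in control. The groups were apart, but by only a small step between double cKO replicate 2 and control replicate 3. The difference was -0.94 ± 0.28 (limma adjusted p = 0.110), and without control replicate 3 it was -1.27 and passed (adjusted p = 0.0196). That was the 1 pass among 12 fits that left out 1 uterus each, with differences from -1.27 to -0.70 (adjusted p up to 0.382). Esam, a junction adhesion gene, differed by -0.79 ± 0.25 (limma adjusted p = 0.123), and it too passed without control replicate 3, at -1.01 (adjusted p = 0.0444). Esam passed in no other such fit, with differences from -1.01 to -0.66 (adjusted p up to 0.387).

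Gpihbp1 encodes the capillary anchor of lipoprotein lipase. It had 6.55, 5.64 and 5.66 in double cKO, 8.50, 7.02 and 6.48 in the uteri labelled Cdh1 cKO, 7.15, 7.81 and 7.66 in P53 cKO, and 7.52, 7.52 and 6.71 in control. Double cKO was below P53 cKO and control on every array and overlapped the uteri labelled Cdh1 cKO. The difference from control was -1.30 ± 0.47 (limma adjusted p = 0.185), and its second detected probe gave -1.38.

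The calcitonin-family coreceptor gene Ramp2 and Egfl7, a secreted vessel factor, were the brightest vessel genes. Ramp2 had 11.35, 11.87 and 11.61 in double cKO, 12.24, 11.32 and 12.46 in the uteri labelled Cdh1 cKO, 12.16, 12.76 and 11.83 in P53 cKO, and 12.21, 11.79 and 12.49 in control. Egfl7 had 11.05, 11.66 and 11.34 in double cKO, 11.82, 12.05 and 11.56 in the uteri labelled Cdh1 cKO, 11.79, 11.70 and 12.26 in P53 cKO, and 11.92, 11.87 and 11.55 in control. Both overlapped between double cKO and control, with differences of -0.55 ± 0.33 and -0.43 ± 0.22. The other Egfl7 probes gave -0.50 and 0.49, the second from a probe detected on 7 of 12 arrays.

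The remaining surface genes below 0 that did not pass were the junction gene Pecam1 at -0.51, the tight junction gene Cldn5 at -0.77, the nitric oxide synthase gene Nos3 at -0.78, the phosphatase gene Ptprb at -0.64, the leukocyte ligand gene Icam2 at -0.54, the matrix gene Mmrn2 at -0.35 and the diaphragm gene Plvap at -0.32. Of these, only Ptprb did not overlap between the groups. Other detected probes of Pecam1 gave -0.77 and -0.56, and those of Nos3 gave -0.56 and -0.69. Over the 7 members with a second detected probe, 8 of 10 such probes had the sign of the probe used here in double cKO against control. The exceptions were an Egfl7 probe and one of Vegfa.

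Vwf, the gene of the surface and junction role that lay above 0, encodes von Willebrand factor, a clotting protein stored in endothelial granules and in platelets. It had 9.43, 10.09 and 10.03 in double cKO, 8.47, 9.64 and 9.67 in the uteri labelled Cdh1 cKO, 8.72, 8.76 and 9.22 in P53 cKO, and 8.84, 9.01 and 8.51 in control. The double cKO values lay above every P53 cKO and control value. The difference was 1.06 ± 0.32 (limma adjusted p = 0.113).

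**Figure D2:**
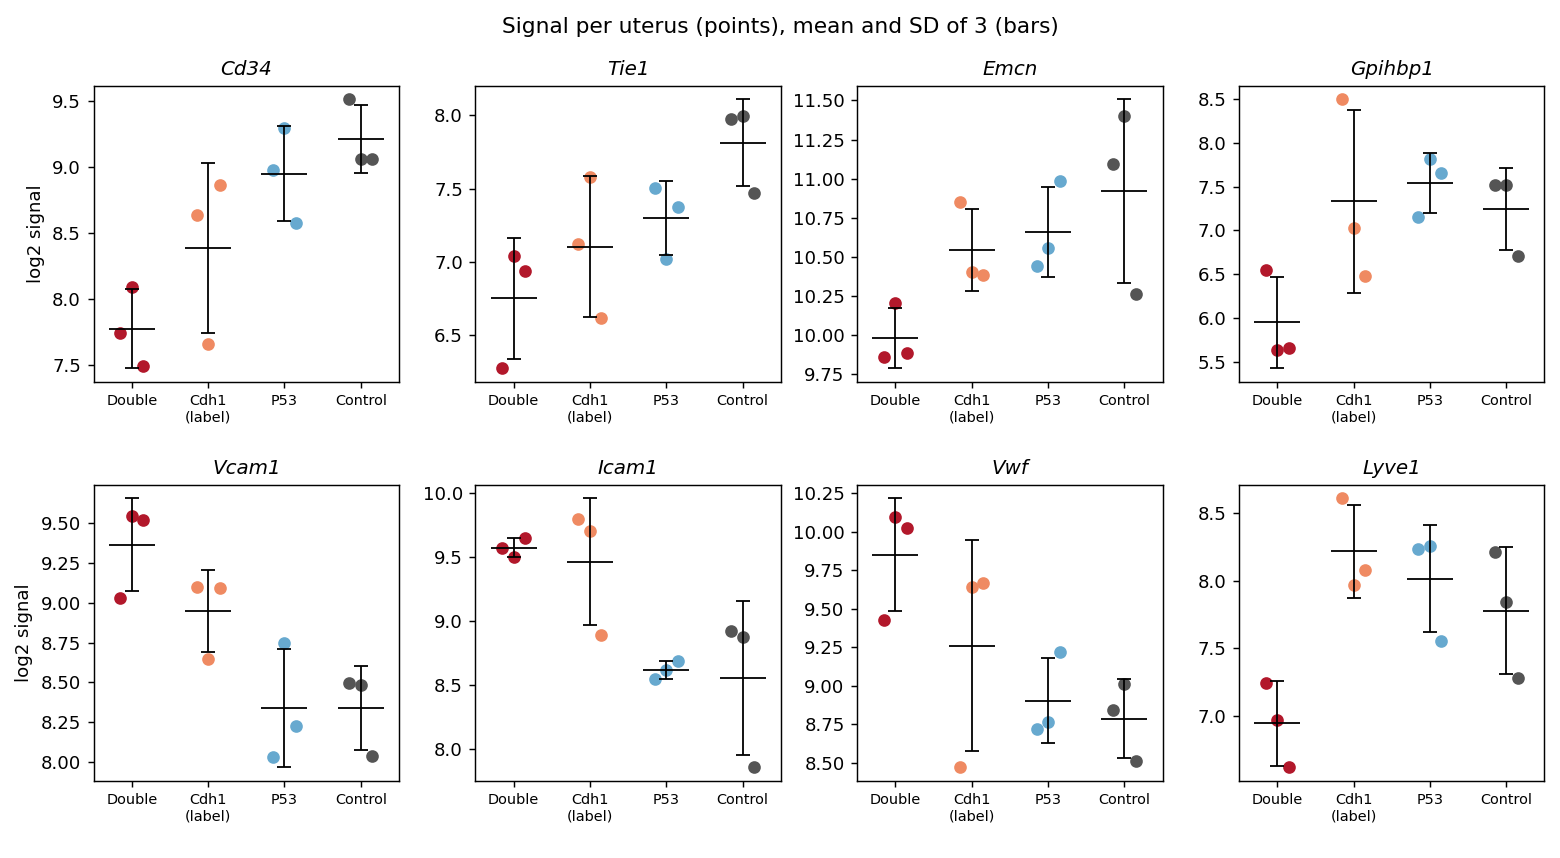
Log2 signal of 8 genes in each uterus (points), with the mean and SD of 3 uteri (bars), by genotype with double cKO on the left and control on the right. Cd34, Tie1, Emcn and Gpihbp1 have their lowest mean in double cKO, Vcam1, Icam1 and Vwf their highest, and Lyve1 lies lower in double cKO than in each other genotype.

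Of the receptors, 6 of 7 lay below 0 (median -0.72). Tie1, an orphan partner of the angiopoietin receptor, had 6.27, 7.04 and 6.94 in double cKO, against 7.97, 7.99 and 7.47 in control. The groups did not overlap. The difference was -1.06 ± 0.29 (limma adjusted p = 0.0789), and without control replicate 3 it was -1.24 (adjusted p = 0.0547). Tie1 passed in 0 of 12 fits that left out 1 uterus each, with differences from -1.24 to -0.83 (adjusted p up to 0.281). Tek, the angiopoietin receptor gene, had 8.53, 8.31 and 8.41 in double cKO, against 9.82, 10.18 and 8.86 in control, with no overlap. It differed by -1.20 ± 0.39 (limma adjusted p = 0.131), and passed without control replicate 3, at -1.58 (adjusted p = 0.0389). Tek passed in no other such fit, with differences from -1.58 to -0.92 (adjusted p up to 0.433).

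Flt1, a receptor that binds and sequesters VEGF, differed by -0.74 ± 0.27, the guidance receptor gene Robo4 by -0.72 ± 0.22, the TGF-beta coreceptor gene Eng by -0.70 ± 0.33, and the apelin receptor gene Aplnr by -0.69 ± 0.41 (limma adjusted p between 0.123 and 0.431). Flt1 and Robo4 did not overlap between double cKO and control, and Eng and Aplnr did. Kdr, the main signalling receptor for VEGF, was dim, detected on 3 of 3 double cKO and 2 of 3 control arrays, and differed by 0.22 ± 0.18.

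Notch signalling and transcription factor genes had no common direction. Notch4, an endothelial Notch receptor gene, had 7.93, 8.60 and 8.30 in double cKO, against 8.99, 9.20 and 8.80 in control, with no overlap (difference -0.72 ± 0.23, limma adjusted p = 0.128). Its dim second probe gave -0.06. Its ligand gene Dll4 and the Notch target gene Hey1 lay above 0, at 0.51 ± 0.23 and 0.44 ± 0.25, and neither overlapped, but neither passed (limma adjusted p = 0.290 and 0.419). The ETS factor genes Fli1 and Ets1 differed by -0.55 ± 0.28 and -0.29 ± 0.26 and overlapped.

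The 3 tested members grouped here for leukocyte adhesion all lay above 0, with a median of 1.02. Icam2, the leukocyte ligand gene grouped with the surface genes, lay below 0, at -0.54 (limma adjusted p = 0.341). The common direction thus depends on this grouping. Vcam1, which encodes the adhesion molecule that captures leukocytes through integrin alpha 4, had 9.03, 9.54 and 9.52 in double cKO, 9.10, 8.65 and 9.09 in the uteri labelled Cdh1 cKO, 8.03, 8.75 and 8.23 in P53 cKO, and 8.50, 8.49 and 8.04 in control. It rose by 1.02 ± 0.24 in double cKO against control (limma adjusted p = 0.0492). The call held in 2 of 12 fits that left out 1 uterus each, those without replicate 2 of either single ablation, and the adjusted p reached 0.173. It was also lost with no detection filter, with detection on at least 9 arrays, with only the groups compared and with the replicate number as a block (adjusted p up to 0.0939).

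Icam1, whose product binds leukocyte integrins, had 9.57, 9.50 and 9.65 in double cKO, 9.79, 9.70 and 8.89 in the uteri labelled Cdh1 cKO, 8.55, 8.62 and 8.69 in P53 cKO, and 8.93, 8.88 and 7.86 in control. Double cKO lay above all P53 cKO and control values. The difference from control was 1.02 ± 0.30 (limma adjusted p = 0.103), and 0.67 without control replicate 3. Selp, which encodes the granule selectin of endothelium and platelets, had 7.07, 7.03 and 7.09 in double cKO, against 6.69, 6.18 and 5.99 in control, with no overlap. Its difference was 0.78 ± 0.29 (limma adjusted p = 0.192).

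**Figure D3:**
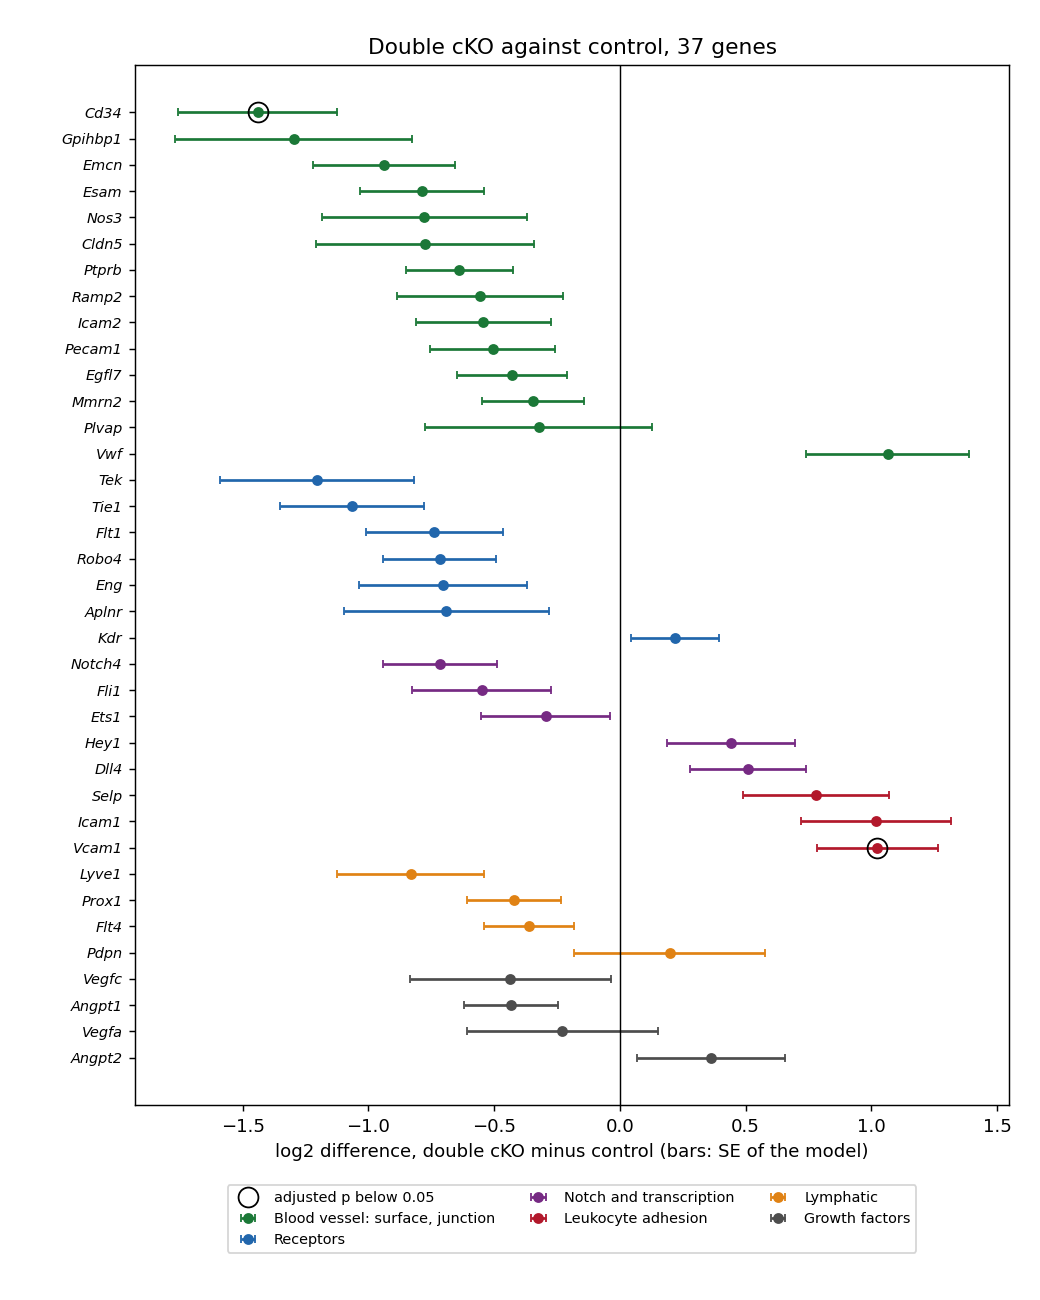
Log2 difference of double cKO minus control for the 37 tested genes, with the standard error of the model, coloured by role, and with an open ring where the adjusted p was below 0.05. Of the 37 points, 28 lie left of 0, and the rings mark Cd34 at -1.44 and Vcam1 at 1.02.

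Of the 4 lymphatic genes, 3 lay below 0 in double cKO (median -0.39) and none passed in limma, with 2 at an unadjusted p below 0.05. Lyve1, which encodes the hyaluronan receptor of lymphatic endothelium and is also made by some macrophages, had 7.25, 6.97 and 6.62 in double cKO, 8.61, 7.97 and 8.08 in the uteri labelled Cdh1 cKO, 8.23, 8.26 and 7.56 in P53 cKO, and 8.21, 7.84 and 7.28 in control. Every double cKO value lay below every value of the other genotypes, by a narrow margin against control replicate 3. The difference from control was -0.83 ± 0.29 (limma adjusted p = 0.170). Prox1, the master regulator of lymphatic fate, was detected on 1 of 3 double cKO and 3 of 3 control arrays, so its fitted -0.42 rests mostly on double cKO signals not well above background. The VEGF-C receptor gene Flt4 differed by -0.36 ± 0.18.

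Pdpn, the podoplanin gene, which stroma and mesothelium also express, was the brightest lymphatic member. It had 11.62, 10.38 and 10.55 in double cKO, 11.36, 11.12 and 10.30 in the uteri labelled Cdh1 cKO, 11.04, 10.97 and 10.75 in P53 cKO, and 10.73, 11.15 and 10.08 in control. The groups overlapped throughout, and the difference of double cKO from control was 0.20 ± 0.38.

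The growth factor genes showed small differences, with 3 of 4 below 0 (median -0.33), and none passed in limma, with 1 at an unadjusted p below 0.05. Vegfa, the principal endothelial growth factor gene, had 9.30, 9.45 and 8.93 in double cKO, 10.23, 8.79 and 8.78 in the uteri labelled Cdh1 cKO, 9.48, 9.44 and 9.49 in P53 cKO, and 10.01, 9.42 and 8.93 in control. Angpt2, a context-dependent antagonist of Tek, had 8.78, 8.26 and 8.19 in double cKO, 8.83, 8.67 and 8.39 in the uteri labelled Cdh1 cKO, 8.12, 8.49 and 8.43 in P53 cKO, and 8.07, 8.66 and 7.39 in control. All groups overlapped for these 2 genes in double cKO against control, and the differences were -0.23 ± 0.38 for Vegfa and 0.36 ± 0.29 for Angpt2. The second Vegfa probe gave 0.10. Vegfc, the lymphatic growth factor gene, differed by -0.44 ± 0.40. Angpt1, the Tek agonist gene, was detected on 1 of 3 double cKO and 2 of 3 control arrays, so its fitted -0.43 rests mostly on double cKO signals not well above background.

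The members not tested were the ETS factor gene Erg, the selectin gene Sele, the apelin gene Apln, the sphingosine phosphate receptor gene S1pr1 and the endothelial lectin gene Clec14a, which were detected on 0 or 1 of 12 arrays.

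Vessel genes outside the members were tested too. Of 37 other vessel genes tested, 0 rose and 2 fell (Cdh5 and Rhoj), beside 1.91% of all genes higher and 0.82% lower. Of the 37, 29 (78.4%) lay below 0 in double cKO against control, with a median of -0.49, against 55.4% of all genes and a median of -0.04. The uteri labelled Cdh1 cKO against control also had 29 of the 37 below 0, with a median of -0.37, beside 53.6% of all genes. In P53 cKO against control 24 lay below 0, with a median of -0.11, beside 51.1% of all genes. None of the 37 was called in either single ablation. Cdh5, which encodes VE-cadherin, had 8.09, 8.42 and 8.27 in double cKO, against 9.64, 9.63 and 8.84 in control, and fell by 1.11 ± 0.24 (limma adjusted p = 0.0331). The Cdh5 call was lost without any 1 double cKO uterus, control replicate 1 or 2, or P53 cKO replicate 1. Over all 12 fits that left out 1 uterus, its difference ranged from -1.37 to -0.98. Rhoj kept its call in 7 of these fits, with differences from -0.95 to -0.70. Without double cKO replicate 1, 0 of the 37 were called in double cKO against control, beside 1.26% of all genes higher and 0.328% lower. Without control replicate 3 there were 1 higher and 5 lower, beside 2.63% and 1.9% of all genes. Of 23 other angiogenic factor genes, Plaur, Pdgfb and Tgfb1 rose and Cxcl12 fell in double cKO against control, beside 1.91% and 0.82% of all genes. Of the 23, 11 lay above 0 and 12 below, with a median of -0.01. Cxcl12, whose chemokine draws leukocytes and progenitors to vessels, had 9.34, 9.27 and 9.11 in double cKO, against 12.33, 12.06 and 10.29 in control (difference -2.32 ± 0.44, limma adjusted p = 0.0214). Its call was lost without any 1 double cKO uterus and without control replicate 1 or 2. Over all 12 fits the Cxcl12 difference ranged from -2.96 to -1.94. Over the 12 fits that left out 1 uterus, Plaur and Pdgfb kept their calls in 8 each and Tgfb1 in 6. Of 10 other lymphatic genes and 16 hypoxia response genes 0 passed in limma, with 1 and 2 at an unadjusted p below 0.05.

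The differences varied with single uteri. The median deviation of the 29 vessel genes was -0.51, -0.11 and -0.34 on the double cKO arrays, and 0.34, 0.31 and -0.09 on the control arrays. Control replicate 3 was the lowest control uterus for 23 of the 29, and double cKO replicate 1 the lowest of its group for 19. Without control replicate 3 the members called in double cKO against control were Cd34, Tek, Emcn and Esam, all lower, beside 1.9% of all genes lower and 2.63% higher, and the vessel median was -0.77. Without double cKO replicate 1 the count was 0, beside 1.26% of all genes higher and 0.328% lower, and the median -0.44. Without both uteri, a choice made after seeing the data, the count was 0, beside 1.57% higher and 0.894% lower, and the median -0.63.

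Other cell types differed between the same uteri. Of 15 macrophage markers, 6 rose in double cKO against control (Ctss, Lyz2, Tyrobp, C1qc, Fcgr1 and C1qa) and 0 fell, and Cd163 was detected on 1 of 3 arrays in each of these groups. Over 12 fits that left out 1 uterus each, C1qa kept its call in 1, Fcgr1 in 5, C1qc in 8 and Tyrobp in 9, and Ctss and Lyz2 in all 12. Their array medians were 0.41 to 0.83 in double cKO and -0.90 to -0.04 in control. Of 11 neutrophil markers, 8 rose (with Clec4d, S100a8, Il1b, S100a9, Fpr2 and Cxcr2 at the smallest adjusted p), and their array medians were 1.64 to 2.24 in double cKO and -0.90 to -0.82 in control. Of 14 NF-kB inflammation genes, 7 rose, among them Il1b, Tnfaip2, Tnf, Il1a, Tnfaip3 and Cxcl1. The part of these cells in the Vcam1, Icam1 and Selp differences was not tested.

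For Vwf and Selp, which platelets also carry, 1 of 5 platelet markers rose, Ppbp, while the platelet factor 4 gene Pf4 differed by 0.02 and the integrin gene Itga2b by -0.30. The array medians of the platelet list were -0.06 to 0.34 in double cKO and -0.19 to -0.15 in control, and Gp1bb was detected on 1 of 3 double cKO and 0 of 3 control arrays. Of 11 pericyte markers 0 passed in limma, with 3 lower at an unadjusted p below 0.05. Their array medians were -0.30 to 0.08 in double cKO and -0.13 to 0.59 in control. In double cKO against control, 9 of the 11 lay below 0 (81.8%) and 2 above, with a median of -0.53. Of all genes 55.4% lay below 0, and of the 29 blood vessel members 75.9%, with a median of -0.55. Of 12 stromal markers 0 passed in limma, with 1 lower at an unadjusted p below 0.05. Their array medians were -0.21 to -0.10 in double cKO and 0.04 to 0.45 in control. In that comparison 10 of the 12 lay below 0 (83.3%) and 2 above, with a median of -0.45. A shift below 0 was thus not particular to the vessel genes. The part of pericytes and stromal cells in the Cd34 difference was not tested. Of 12 epithelial markers Cldn4 rose, and of 8 T and NK cell markers Nkg7 fell, a call kept in 4 of 12 fits that left out 1 uterus. Of 11 smooth muscle markers 0 passed in limma, and 0 were at an unadjusted p below 0.05. Of these 11, 4 lay below 0 and 7 above, with a median of 0.06.

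**Figure D4:**
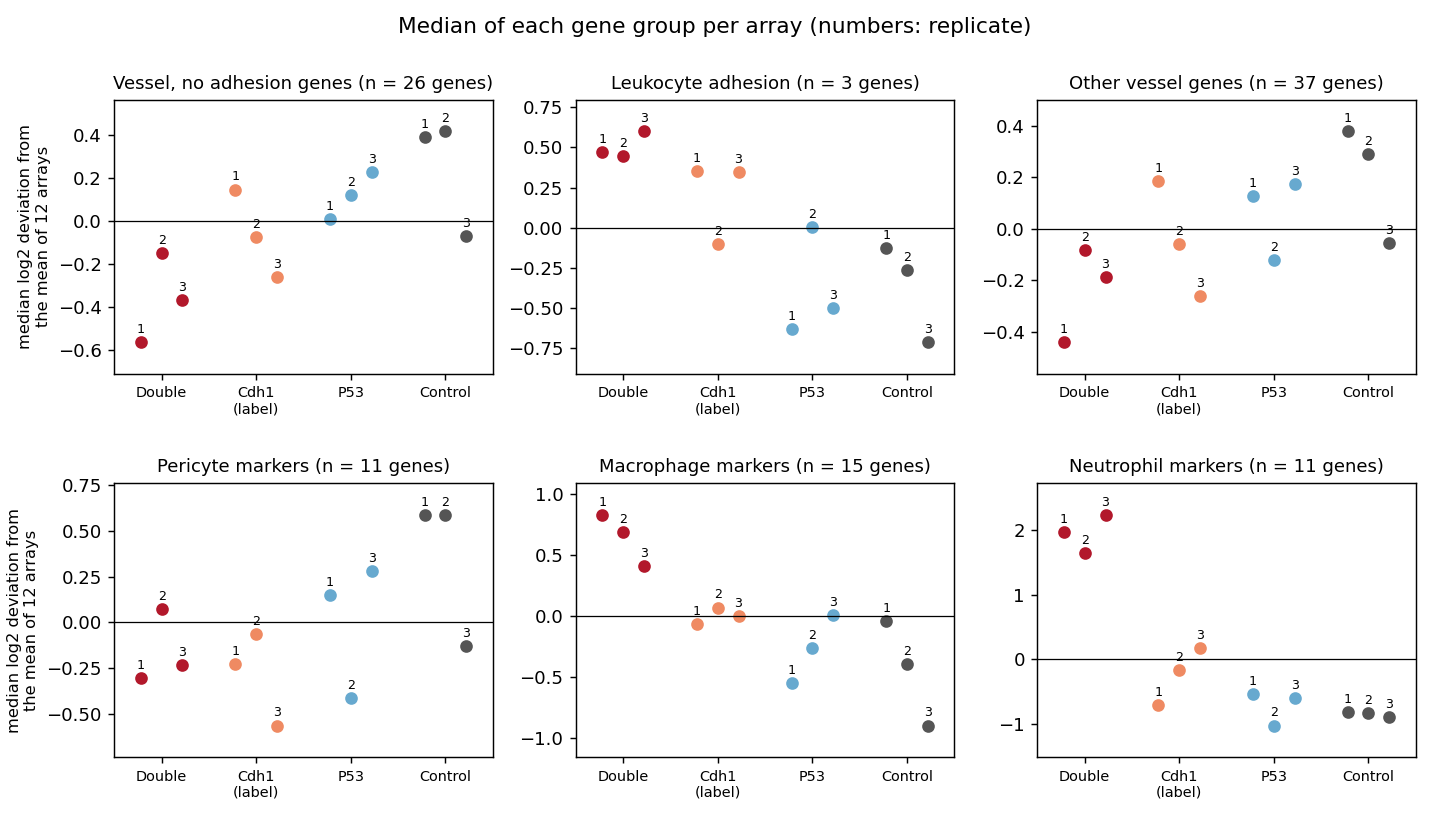
Median log2 deviation from the mean of 12 arrays for 6 gene groups, 1 point per uterus with its replicate number, by genotype with double cKO on the left. Vessel genes have their lowest median in double cKO replicate 1 and their highest in control replicates 1 and 2, and double cKO replicate 2 lies above replicate 3 of the uteri labelled Cdh1 cKO, the 3 adhesion genes are highest in double cKO, and neutrophil markers lie between 1.64 and 2.24 in double cKO and at most 0.17 elsewhere.

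Across the 4 genotypes, double cKO had the lowest group mean for 26 of 37 members (70.3%), beside 34.9% of all genes, and the highest for 7. The order double cKO, labelled Cdh1 cKO, P53 cKO, control, from lowest to highest mean, held for 16 members (43.2%), beside 11.4% of all genes. Members share arrays, so these counts are descriptions. Neighbouring genotypes in that order often overlapped, as for Cd34, where the uteri labelled Cdh1 cKO overlapped double cKO on one side and P53 cKO on the other. In limma's F test over the 4 genotypes 0 of 37 members passed (smallest adjusted p = 0.122), beside 1.25% of all genes, and 12 were at an unadjusted p below 0.05, beside 11.9% of all genes.

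Double cKO against P53 cKO addresses the loss of E-cadherin where p53 is already lost, within the limit that the Cdh1 probe was not lower in double cKO replicate 1. No member passed in limma, beside 1.44% of all genes (1.27% higher and 0.172% lower), with 4 members higher and 10 lower at an unadjusted p below 0.05 (7.37% and 5.97% of all genes). The values did not overlap for 4 higher and 12 lower members, where 10.4% of all genes were higher and 10.4% lower without overlap. The members with the smallest adjusted p were Vcam1 at 1.03 ± 0.24 (limma adjusted p = 0.0701), Cd34 at -1.17 ± 0.32 (0.111), Lyve1 at -1.07 ± 0.29 (0.120), Gpihbp1 at -1.59 ± 0.47 (0.159), Icam1 at 0.95 ± 0.30 (0.184) and Notch4 at -0.70 ± 0.23 (0.197). The median over the members was -0.49. The adhesion genes Icam1, Vcam1 and Selp again lay above 0, while Icam2 lay at -0.40. P53 cKO replicate 2 had the highest Vcam1 and Selp signal of its group, and without it Vcam1 passed (adjusted p = 0.0448), where 123 genes were called in all. Gpihbp1 was the 1 member called without replicate 1 of the uteri labelled Cdh1 cKO, and Cd34 without their replicate 2, where 209 and 187 genes were called. Without double cKO replicate 1 the count was 0, with 122 genes called. The double cKO uteri are those compared with control above.

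Double cKO against the uteri labelled Cdh1 cKO gave smaller differences, with a median of -0.27. No member passed in limma, beside 0.492% of all genes (0.459% higher and 0.0328% lower), with 2 higher and 2 lower at an unadjusted p below 0.05 (4.76% and 3.4% of all genes). Selp was higher without overlap, and Lyve1 and Emcn lower, beside 5.85% and 4.94% of all genes. Lyve1 differed by -1.27 ± 0.29 (limma adjusted p = 0.127), Gpihbp1 by -1.38 ± 0.47 (0.430), Hey1 by 0.63 ± 0.25 (0.535), Dll4 by 0.51 ± 0.23 (0.612), Egfl7 by -0.46 ± 0.22 (0.644) and Cldn5 by -0.91 ± 0.43 (0.644). Gpihbp1 had its highest signal of all 12 arrays, 8.50, in replicate 1 of the uteri labelled Cdh1 cKO, and without that uterus the difference was -0.80.

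The uteri labelled Cdh1 cKO against control address the loss of E-cadherin alone, within the limit that the Cdh1 probe was not lower there. No member passed in limma, beside 0.0082% of all genes, with 2 higher and 3 lower at an unadjusted p below 0.05 (4.07% and 4.71% of all genes). The median was -0.19. Vcam1 was higher without overlap and Angpt1 and Cd34 lower, beside 5.23% and 6.56% of all genes. Icam1 differed by 0.91 ± 0.30 (limma adjusted p = 0.410), Cd34 by -0.83 ± 0.32 (0.486), Vcam1 by 0.61 ± 0.24 (0.501), Tie1 by -0.71 ± 0.29 (0.505) and Notch4 by -0.47 ± 0.23 (0.597). Angpt1 was not well above background on any of these 3 arrays and was detected on 2 of 3 control arrays. Its mean was at least 1.17-fold below the control mean, but the difference did not pass (limma adjusted p = 0.463). This bound leaves out the variation between uteri, so no smallest change is shown. The bound compares the mean of the control group with the higher, on each array, of the probe's own signal and the lowest detected signal.

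P53 cKO against control addresses the loss of p53 alone, and the members lay close to control. No member passed in limma, beside 0.0164% of all genes, and 0 were at an unadjusted p below 0.05 (1.11% and 1.27% of all genes higher and lower). The median was -0.01. No member's values were apart in either direction, beside 4.13% and 4.93% of all genes. The members with the smallest p were Tie1 at -0.51 ± 0.29, Tek at -0.48 ± 0.39, Kdr at 0.19 ± 0.18, Angpt2 at 0.30 ± 0.29, Angpt1 at -0.19 ± 0.19 and Emcn at -0.26 ± 0.28. Angpt2 turned to -0.02 without control replicate 3, whose Angpt2 signal was the lowest of the 12.

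The interaction asks whether the double cKO differs from the sum of the single ablations. No member passed in limma, beside 0.0984% of all genes, with 0 higher and 2 lower at an unadjusted p below 0.05 (3.06% and 1.72% of all genes). These were Lyve1 at -1.51 ± 0.41 (limma adjusted p = 0.591) and Gpihbp1 at -1.67 ± 0.67 (0.973). Egfl7 followed at -0.60 ± 0.31, Cldn5 at -0.94 ± 0.61, Plvap at -0.90 ± 0.64 and Hey1 at 0.50 ± 0.36. For Cd34 the interaction was -0.35 ± 0.45, for Vcam1 0.42 ± 0.34 and for Tie1 0.16 ± 0.40, so for these genes the double cKO was not shown to differ from that sum.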

How the data were processed

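Total RNA from 12 whole uteri was hybridised to Illumina bead arrays, 1 array per uterus. The authors deposited non-normalized intensity values per probe, a detection p-value for each and the bead count behind it, per the file headers. They also deposited log2 values of the same arrays, made by steps that neither labels nor headers describe. They lay within 0.0234 of the log2 values used below. The submitters' processing notes list limma 3.10.2. The deposited bead standard error of each signal, per the file headers, was not used.

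Intensities were background corrected, quantile normalised and logged with neqc (limma 3.58.1, R 4.3.3, offset 16). Genes were named from the platform annotation and represented by the probe with the highest mean. Genes entered the tests when that probe reached a detection p below 0.05 on 3 arrays or more. A limma model with 4 group means over 12 arrays gave 6 contrasts and an F test, 2-sided, with Benjamini-Hochberg adjustment over 12194 genes and a threshold of 0.05. It had 8 residual and 2.84 prior degrees of freedom. Errors are standard errors beside differences and standard deviations beside means. Every adjusted p is from this limma model or its stated alternative. The model was tested on simulated data.

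The members and lists were chosen with earlier results of these data known, so lists are described and not tested. Named in each comparison are the called members and, up to 6, those with the smallest adjusted p. All arrays are shown for called members and the 2 brightest of each set, and other values shown were picked after they were seen. Alternatives changed the background correction, normalisation, detection filter, probe summary, samples fitted, replicate block and array weights, used the deposited log2 values, or left out each array.

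Same-numbered arrays deviated together in all 3 pairs only for the uteri labelled Cdh1 cKO and control (r = 0.218, 0.332 and 0.297 over tested genes). The labels do not say what the numbers share. The replicate block called 0 members in that comparison, as did the unblocked model. No label or header assigns arrays to chips or scans, so batches were not examined.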

Additional observations from a re-analysis of the deposited data

Results flagged for a closer look

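Lyve1, the hyaluronan receptor gene of lymphatic endothelium, lay on opposite sides of the matched groups with Cdh1 targeting. In the uteri labelled Cdh1 cKO the 3 values lay 0.19 to 0.83 above the control mean, and in double cKO they lay 1.39 to 0.77 below the P53 cKO mean. All uteri of one group thus lay above the mean of their comparison group, and all of the other below. Single uteri labelled Cdh1 cKO still overlapped control, with a difference of 0.44 ± 0.29 (limma adjusted p = 0.709). The interaction was -1.51 ± 0.41 on the log2 scale (unadjusted p = 0.00402 and adjusted p = 0.591 in limma over all genes), so it did not pass. Without single arrays it ranged from -1.74 to -1.26.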

How the results depend on the processing

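The members called in double cKO against control were 2 with the settings of the report, beside 333 genes in all. The count was 0 with no detection filter, beside 283 genes in all. It was 1 with detection on at least 9 arrays (beside 252 genes) and 1 with only the groups compared (beside 337), Cd34 both times. When single arrays were left out it was 0 to 4, beside 117 to 553 genes. With array weights it was 21 (5 higher, 16 lower). The 21 stand beside 2482 genes called in all under those weights, which ran from 0.398 for double cKO replicate 1 to 3.24 for its replicate 3 and were estimated gene by gene because the default method did not converge. In double cKO against P53 cKO, where 0 were called, the count was 12 with array weights (beside 1531 genes in all). It was 1 with only the groups compared (Icam1, beside 166 genes) and 0 to 1 without single arrays (beside 68 to 222 genes). The F test called 15 members with array weights, beside 1531 genes in all, and 0 to 1 without single arrays, beside 54 to 201 genes. Leaving out control replicate 3 and double cKO replicate 1 together gave 0 in double cKO against control, beside 300 genes in all.

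With the replicate number as a block, which the labels do not describe as a shared litter or batch and where pairs correlated between -0.393 and 0.332, the count in double cKO against control was 0, beside 214 genes in all, and Lyve1 was the 1 member called against the uteri labelled Cdh1 cKO and against P53 cKO, beside 47 and 104 genes. The block changed no other member count. Where double cKO was compared, with control or either single ablation, pairs correlated only between -0.160 and 0.0866, so they did not deviate together. The wider range above includes the single ablations against control.

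Without background correction the lymphatic medians were -0.13 in double cKO against control and -0.11 against P53 cKO. With array weights the vessel medians were -0.23 in P53 cKO against control and 0.024 in the interaction. Leaving out single arrays gave vessel medians of -0.77 to -0.44 (double cKO), -0.46 to -0.13 (labelled Cdh1 cKO) and -0.22 to 0.066 (P53 cKO) against control. Growth factor medians were then -0.49 to 0.021 for labelled Cdh1 cKO, -0.31 to 0.13 for P53 cKO and -0.32 to 0.19 for the interaction, and the lymphatic interaction median was -0.52 to -0.18. Without control replicate 3 and double cKO replicate 1 together, the vessel medians were -0.44 for labelled Cdh1 cKO, -0.22 for P53 cKO and 0.089 for the interaction, and the growth factor medians -0.49, -0.31 and 0.19. Angpt2 in P53 cKO against control reversed to -0.0069 with array weights and to -0.021 without control replicate 3, also when double cKO replicate 1 was left out too. Without single arrays it ranged from -0.021 to 0.613. The causes were not tested. The number of arrays, 3 a group, limits the precision.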
